A study of Danio rerio with 9 samples.

Results

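The claudin, cadherin and desmosome genes code for the proteins that hold epithelial cells together and seal the spaces between them. They were found by name, as the gene rows called *cldn* (claudins), *cdh* or *pcdh* followed by a digit (cadherins and protocadherins), *dspa*, *dspb* or *dsc2l* (desmosome), *pkp* (plakophilins), *tjp* (zonula occludens proteins) and *epcam*, with at least 15 counts over the 9 libraries. The rule gave 87 of the 41977 gene rows, of which 23519 had at least 15 counts. A further 6 rows carried such a name but fewer counts, and no row was named *dspb*. The 87 rows comprised 31 claudins, 19 cadherins, 23 protocadherins, 8 desmosome and plakophilin genes, 5 zonula occludens genes and *epcam*, and 5 of them joined several neighbouring genes under 1 locus.

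RNA-sequencing was performed on whole zebrafish embryos of the wild type TE strain at shield stage (6.75 hpf, early gastrulation). All embryos were dechorionated, and they were left uninjected or received at the one-cell stage 10 pg of *bmp2b* mRNA (*bmp*-overexpressing) or 100 pg of *chordin* mRNA (*chordin*-overexpressing), Chordin being a secreted inhibitor of BMP. Each group held 3 samples of 10 pooled embryos, no group injected with a control mRNA is among the samples, and libraries held between 8861308 and 22372856 counts. The study calls the uninjected embryos siblings of the injected ones. No label says whether the samples of a group came from separate clutches, so the p-values measure the spread between these samples only.

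Classical cadherins bind their own kind across the cell boundary and are anchored to actin through catenins. Claudins form the strands of tight junctions, which zonula occludens proteins link to the cell cortex, and desmosomes join keratin filaments of neighbouring cells through cadherins, plakophilins and desmoplakin. In the zebrafish gastrula these proteins serve the enveloping layer, a tight outer epithelium, as well as the deep cells below it, where E-cadherin is needed for epiboly and protocadherins act in the migrating mesoderm. BMP signaling is high on the ventral side, and the comparisons address how junction genes respond when it is raised or blocked.

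The summed levels of epidermal ectoderm and of axial mesendoderm markers stood in opposite order over the 3 groups. The summed level of 6 epidermal ectoderm markers was 1333 to 1437 CPM (counts scaled to a common library size) with *bmp*, 501 to 575 CPM without injection and 279.8 to 294 CPM with *chordin*. That of 6 axial mesendoderm markers was 125 to 167 CPM with *bmp*, between 276 and 295 CPM in uninjected embryos and 556 to 582 CPM with *chordin*. The summed level of 6 neural ectoderm markers took neither order. It was 945 to 1044 CPM with *bmp*, 1149 to 1311 CPM in uninjected embryos and 989 to 1110 CPM with *chordin*. Single markers differed from the sum. *otx2* (means of 0, 4.32 and 11.5 CPM with *bmp*, uninjected and *chordin*) and *six3b* (0.15, 2.61 and 8.04 CPM) took the axial order without overlap. The means of *sox2*, *sox3* and *sox19a* were highest in uninjected embryos. Of the 6 epidermal markers, 3 were lower with *chordin* than without injection (limma, adjusted p under 0.05), while *gata3*, *tfap2a* and *tp63* did not pass. Of the 4 primordial germ cell markers, 0 passed the test in any comparison (limma, adjusted p under 0.05), and 0 had an unadjusted p under 0.05.

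The share of members that passed the test was near or above that of all genes in each comparison, as given below. Of the 25 members with at least 20 CPM in uninjected embryos, the 3 group means lay within 1.2-fold of each other for 12. They were over 1.5-fold apart for 3, which were *pcdh18b*, *pkp3b* and *pcdh8*. The same counts were not made over all genes of that level, so they do not set the members apart. Among all members, 34 had a mean under 1 CPM in uninjected embryos, 24 lay between 1 and 10, 22 between 10 and 100, and 7 above 100 CPM. A filter on low counts left 60 members to test for *bmp* against uninjected, 58 for *chordin* against uninjected and 59 for *bmp* against *chordin*. It left 53 members tested in all 3 comparisons and 22 in none, and those 22 never reached more than 2.62 CPM in any library. A member that passed the filter may have done so through the group in which it was higher.

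With *bmp*, *cdh1* rose and *pcdh18b* and *pkp3b* fell, which is 5% of the 60 members tested against 3.15% of all 16779 genes tested (limma on voom-weighted log2 CPM, adjusted p under 0.05). By direction, the background was 1.72% higher and 1.43% lower. With *chordin*, *pcdh18b* rose and no member fell, which is 1.72% of 58 members against 0.892% of all genes, or 0.591% higher and 0.301% lower. At an unadjusted p under 0.05 there were 12 members (20% against 12.9% of all genes) with *bmp* and 10 (17.2% against 9.43%) with *chordin*. Among them were *cdh19* with *bmp* and *pcdh7a* with *chordin*, which passed the filter through the group in which they were higher. These unadjusted shares are therefore not given as support. By family, this was 6 of 10 cadherins tested with *bmp* (60%, *cdh19* among them) and 3 of 11 with *chordin* (27.3%). For protocadherins it was 2 of 15 (13.3%) and 4 of 13 (30.8%), and for desmosome and plakophilin genes 1 of 8 and 0 of 8. Claudins and zonula occludens genes are given below. The comparisons of *bmp* and of *chordin* with uninjected embryos share the uninjected libraries.

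Set directly against each other, *bmp*- and *chordin*-overexpressing embryos differed in 3 members. *cdh1* was higher and *pcdh18b* and *pcdh8* were lower with *bmp*, which is 5.08% of 59 members against 5.04% of all genes, or 2.19% higher and 2.85% lower. At an unadjusted p under 0.05 there were 11 members (18.6% against 14.4%). They include *cdh19* and *cldn18*, which passed the filter through the group in which they were higher, so this share is not given as support. The share of members called was thus near that of all genes in this comparison, and the median log2 fold change of the members was 0.06, beside 0.01 for all genes. In the comparisons with uninjected embryos the medians were 0.04 for *bmp* and 0.02 for *chordin*, beside 0.01 and 0.0038 for all genes.

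**Figure D1:**
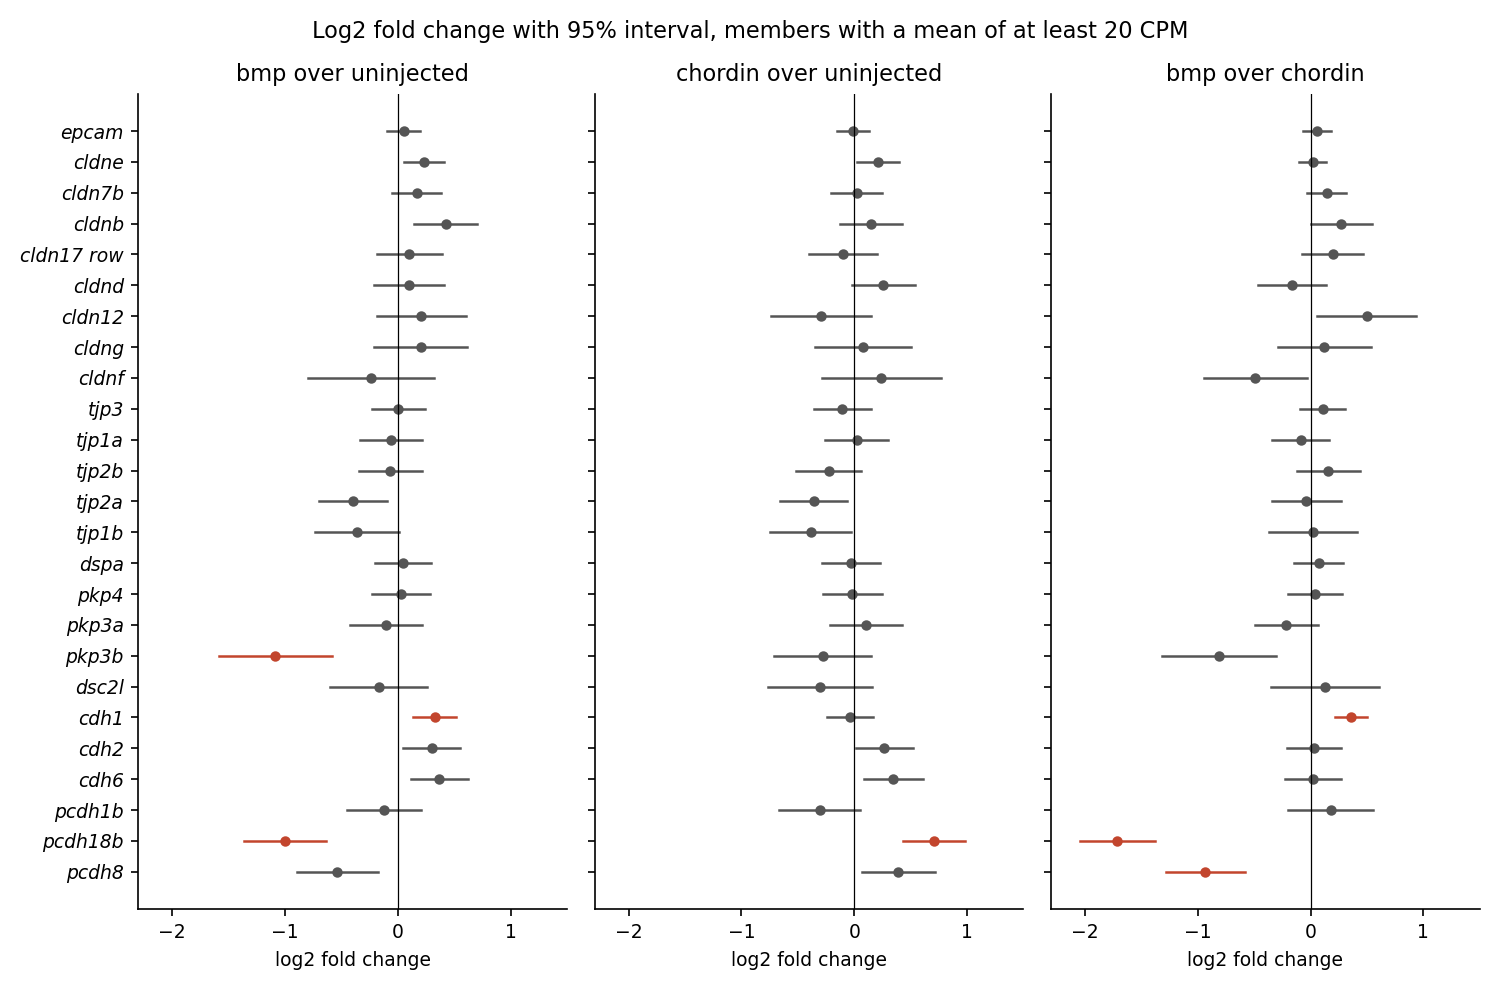
Log2 fold change (x axis) with its 95% interval for the 25 members with a mean of at least 20 CPM in uninjected embryos, for *bmp* over uninjected, *chordin* over uninjected and *bmp* over *chordin* (3 libraries per group, limma), with members past an adjusted p of 0.05 in red. Red intervals belong to *cdh1*, *pkp3b*, *pcdh18b* and *pcdh8* only, and the member with the widest span between comparisons is *pcdh18b*, from -1.71 to 0.71.

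Counting the members whose libraries did not overlap between groups gave 8 above and 6 below with *bmp* against uninjected (23.3% of members against 18.1% of all genes, or 9.01% above and 9.04% below). For *chordin* against uninjected there were 5 above and 6 below (19% against 14.5%, or 7.21% above and 7.29% below), and for *bmp* against *chordin* 7 above and 7 below (23.7% against 19.3%, or 9.46% above and 9.82% below). Some of these members passed the filter through the group in which they were higher. *cdh19* did so through its *bmp* libraries and is among those above in both comparisons with *bmp*. The same holds for *cldni*, above with *bmp* against uninjected, and for *cdh10a* and *pcdh7a*, above with *chordin* against uninjected. It also holds for *cdh10a* and *cldn18*, below with *bmp* against *chordin*. These are examples and not a full list. The shares include such members and are not given as support. Those of all genes were taken after the same filter. The fit was precise enough to keep the 95% interval of the fold change inside 2-fold in either direction for 28, 31 and 28 members in the 3 comparisons. For the other members tested, the interval reached beyond 2-fold.

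Among the members with at least 20 CPM, the span of the 3 group means was widest for *pcdh18b* (chromosome 14, 41804952 to 41812540, GRCz10), a protocadherin of the non-clustered delta type. Its level was 53.5, 55.5 and 57.0 CPM in the uninjected libraries, 31.5, 29.3 and 21.9 CPM with *bmp*, and 91.4, 85.9 and 91.9 CPM with *chordin*. The 3 groups did not overlap, and uninjected embryos stood between the others. Mean levels were 55.3 ± 1.76, 27.6 ± 5.04 and 89.8 ± 3.31 CPM (SD, n = 3).

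*pcdh18b* fell by 1.00 on the log2 scale with *bmp* (SE 0.18, limma adjusted p = 0.000294) and rose by 0.71 with *chordin* (SE 0.13, adjusted p = 0.0037). Between *bmp* and *chordin* the log2 fold change was -1.71 (SE 0.16, adjusted p = 3.62e-09), a 3.28-fold lower level with *bmp*. All 11 refits of each comparison under other settings kept these calls. In whole embryos, fewer cells that express a gene and less of its RNA per cell cannot be told apart. The summed level of the axial mesendoderm markers followed the same order of the groups as *pcdh18b*, with 5 of 6 higher with *chordin*, 3 of 5 tested lower with *bmp* and none at 0 in any library, while 1 of them, *foxa2*, was at 10.6 CPM with *bmp* beside 5.41 CPM in uninjected embryos. This order was not particular to the axial markers. The summed level of 2 endoderm markers took it too. It was 99.1 to 104.6 CPM with *bmp*, 129 to 149 CPM in uninjected embryos and 171 to 179 CPM with *chordin*. Nearly all of this sum was *sox32* (means of 101.7, 135.2 and 170.3 CPM). *sox17* had means of 0.45, 1.48 and 4.62 CPM, and its uninjected libraries overlapped both injected groups. Neither gene passed the test against uninjected embryos (limma, adjusted p under 0.05). The neural markers *otx2* and *six3b* also took the order of *pcdh18b*. The part of any of these markers in the result was not tested.

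Its namesake *pcdh18a* (chromosome 1, 12574317 to 12584330) was measured at 6.48, 3.36 and 6.07 CPM in uninjected, 6.09, 8.42 and 7.37 CPM with *bmp* and 6.11, 6.45 and 8.36 CPM with *chordin*, which overlap. The ratio of *pcdh18b* to *pcdh18a* within a library was 8.25, 16.5 and 9.39 in uninjected, 5.17, 3.48 and 2.97 with *bmp*, and 14.97, 13.3 and 10.99 with *chordin*. The *bmp* ratios lay below all others, with an exact two-sided permutation p of 0.1 against either group, the smallest that 3 against 3 libraries allow. The ratio rests on few reads of *pcdh18a*, which had 842 counts in all.

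*pcdh8* (chromosome 9, 54118153 to 54126120), the paraxial protocadherin of the gastrula that acts in convergence and extension in frog and fish, was the other member whose 3 groups did not overlap in the order *chordin*, uninjected, *bmp*. It measured 46.0, 52.1 and 44.4 CPM in uninjected, 35.5, 36.9 and 26.4 CPM with *bmp*, and 60.3, 52.2 and 72.5 CPM with *chordin*. The gap between uninjected and *chordin* libraries was narrow, since the highest uninjected and the lowest *chordin* library nearly coincided. *bmp* against *chordin* gave a log2 fold change of -0.93 (SE 0.17, limma adjusted p = 0.00039), a call kept in all 11 refits.

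Against uninjected embryos *pcdh8* passed no threshold, at -0.54 with *bmp* (SE 0.18, limma adjusted p = 0.101) and 0.39 with *chordin* (SE 0.16, adjusted p = 0.384). Between *bmp* and *chordin*, 5 of 6 axial mesendoderm markers were lower with *bmp*, and of the 5 paraxial mesoderm markers *tbx16* and *tbx6l* were higher and *msgn1* lower. The part of either list in the *pcdh8* levels was not tested.

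**Figure D2:**
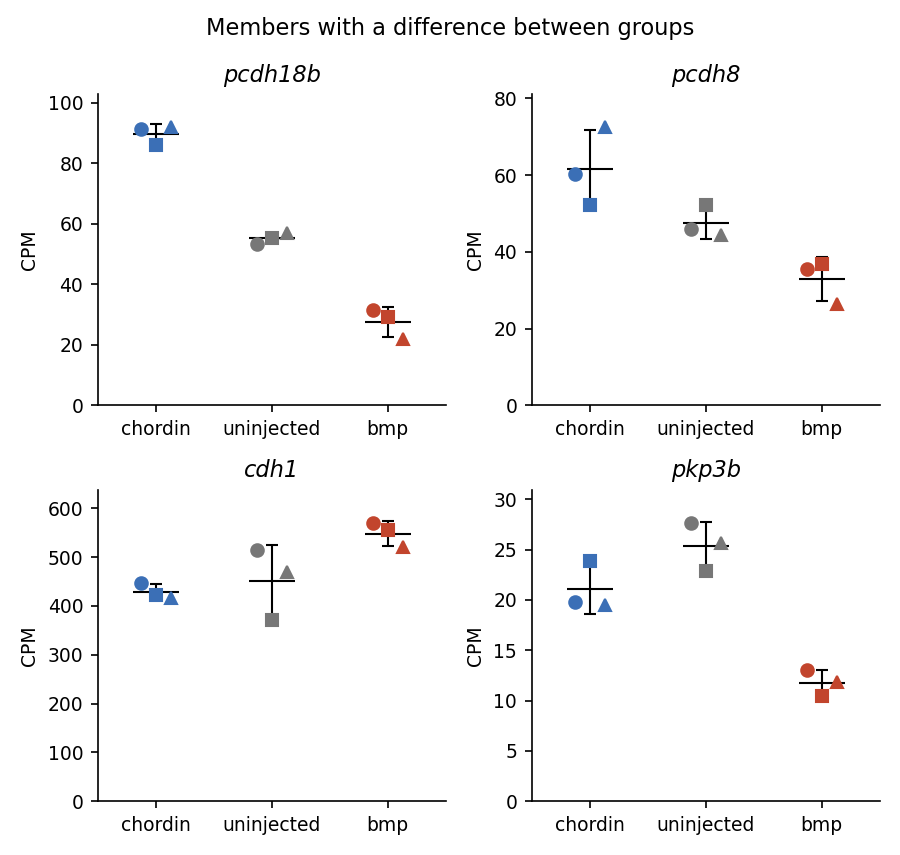
Levels in CPM (y axis, from 0) of *pcdh18b*, *pcdh8*, *cdh1* and *pkp3b* in *chordin*-overexpressing, uninjected and *bmp*-overexpressing embryos. Circles, squares and triangles are replicates 1, 2 and 3, and the line and bars give the mean ± SD (n = 3). The groups are separate and ordered for *pcdh18b* and *pcdh8*, while the *bmp* libraries are above all others for *cdh1* and below all others for *pkp3b*.

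Among the other protocadherins, *pcdh1b* had 59.1, 78.4 and 64.8 CPM in uninjected, 81.9, 59.3 and 48.8 CPM with *bmp* and 44.4, 45.0 and 73.3 CPM with *chordin*, with all groups overlapping. Its partner by name *pcdh1a* stayed at or below 1.11 CPM and was not tested. *pcdh15b* and *pcdh15a* had uninjected means of 3.47 and 2.15 CPM. *pcdh15a* was above the uninjected libraries in all 3 *bmp* libraries (3.33 to 5.14 against 1.52 to 3.08 CPM) without passing the test.

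*pcdh19*, known from zebrafish work to act with N-cadherin in neural morphogenesis, was lower in level with *chordin* but uncalled. The uninjected libraries had 9.89, 4.95 and 6.50 CPM, the *bmp* libraries 6.39, 3.21 and 3.57 CPM and the *chordin* libraries 6.26, 1.13 and 1.04 CPM. *chordin* replicate 1 stood apart from the other two and overlapped the uninjected group. The log2 fold change of -1.76 (SE 0.62) had an adjusted p of 0.273 in limma. *pcdh7a* had 0.524, 2.59 and 2.167 CPM in uninjected and 4.76, 3.74 and 5.42 CPM with *chordin*, where it was not called. The gene clusters of protocadherins appear in the files as joined rows, whose reads cannot be assigned to single genes.

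*cdh1* (chromosome 7, 52826602 to 52847585) codes for E-cadherin, the main adhesion protein of the blastoderm. Levels were 514, 372 and 469 CPM in uninjected, 569, 555 and 519.7 CPM with *bmp* and 447, 422 and 416 CPM with *chordin*. The *bmp* libraries lay above all others, and the uninjected libraries spread around the *chordin* ones. Group means were 452 ± 73.0, 548 ± 25.6 and 429 ± 16.5 CPM (SD, n = 3).

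Between *bmp* and *chordin*, *cdh1* had a log2 fold change of 0.36 (SE 0.07, limma adjusted p = 0.000591), kept in all 11 refits. Against uninjected it rose by 0.33 with *bmp* (SE 0.09, limma adjusted p = 0.0472), a call that 5 of 11 refits kept (adjusted p from 0.000121 to 0.519). It was lost without any 1 of the *bmp* libraries (adjusted p = 0.228, 0.145 and 0.0622) and without uninjected replicate 2, the lowest library, where the log2 fold change was 0.15 and the adjusted p 0.519. The epidermal ectoderm markers were higher in 6 of 6 with *bmp* against either group, and their part in the *cdh1* level was not tested. With *chordin* it was -0.04 against uninjected (limma adjusted p = 0.941), ranging from -0.20 to 0.06 over the refits.

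*cdh2*, which codes for N-cadherin, the cadherin of neural and mesodermal cells, had 115, 103 and 94.0 CPM in uninjected, 131, 141 and 109.9 CPM with *bmp* and 137, 112 and 124 CPM with *chordin*. Its log2 fold changes against uninjected were 0.30 with *bmp* (SE 0.12, limma adjusted p = 0.262) and 0.27 with *chordin* (SE 0.12, adjusted p = 0.49). The 3 groups overlapped. The ratio of *cdh1* to *cdh2* counts within a library was 4.45, 3.61 and 4.99 in uninjected, 4.34, 3.95 and 4.73 with *bmp* and 3.26, 3.78 and 3.36 with *chordin*. It was higher in every *bmp* than in every *chordin* library (exact two-sided permutation p = 0.1, the smallest possible), and overlapped between *bmp* and uninjected.

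*cdh6*, a type II cadherin, stood above the uninjected libraries in both injected groups. It had 89.95, 106 and 100.2 CPM in uninjected, 112, 137 and 134 CPM with *bmp* and 144, 132 and 109.0 CPM with *chordin*. The log2 fold changes were 0.37 (SE 0.12, limma adjusted p = 0.112) and 0.35 (SE 0.13, adjusted p = 0.317), and neither passed the threshold. The opposite side was taken by *cdh26.1*, at 11.7, 8.66 and 11.4 CPM in uninjected, 6.75, 7.35 and 4.68 CPM with *bmp* and 4.92, 5.77 and 4.78 CPM with *chordin*. Both injected groups were below the uninjected one, with a log2 fold change of -1.01 for *chordin* (SE 0.36, limma adjusted p = 0.276).

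Of the cadherins with few reads, *cdh11* and *cdh19* had the highest levels with *bmp*. *cdh11*, a type II cadherin of mesenchymal cells, had 1.31, 2.07 and 1.08 CPM in uninjected, 6.83, 6.01 and 4.44 CPM with *bmp* and 1.59, 0.906 and 2.94 CPM with *chordin*. *cdh19* had 0.196, 1.08 and 0.433 CPM in uninjected, 4.92, 4.14 and 6.82 CPM with *bmp*, and 0, 0 and 2.65 CPM with *chordin*. In counts, *cdh19* had 67, 62 and 86 reads with *bmp* beside 3, 25 and 6 in uninjected and 0, 0 and 46 with *chordin*, so *chordin* replicate 3 alone carried the reads of its group.

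For both genes every *bmp* library was above every other library. *cdh11* against uninjected showed a log2 fold change of 1.88 (SE 0.60, limma adjusted p = 0.086), and 1 of 11 refits brought it past the threshold. *cdh19* passed the filter on low counts through the *bmp* libraries, in which it was high, so its test is not given as support. At 3 reads in uninjected replicate 1, *cdh19* was at the count taken here as the detection limit of a library.

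**Figure D3:**
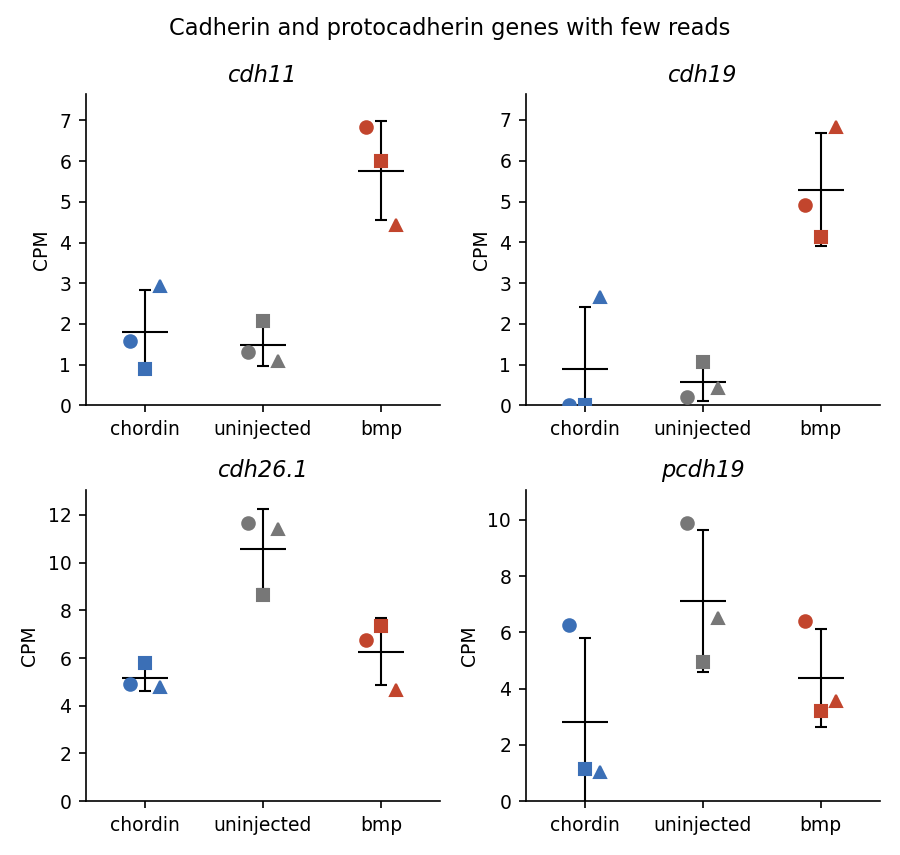
Levels in CPM (y axis, from 0, error bars clipped at 0) of *cdh11*, *cdh19*, *cdh26.1* and *pcdh19* in *chordin*-overexpressing, uninjected and *bmp*-overexpressing embryos. Circles, squares and triangles are replicates 1, 2 and 3, with the mean ± SD (n = 3). *cdh11* and *cdh19* are highest in the *bmp* libraries, *cdh26.1* is highest in the uninjected ones, and 1 *chordin* library stands apart for *cdh19* and for *pcdh19*.

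*cdh8* and *cdh7*, both type II cadherins known from the nervous system, were the remaining cadherins with more than 5 CPM. *cdh8* was above the uninjected libraries in all *bmp* libraries (8.22 to 10.1 against 5.06 to 5.89 CPM), with a log2 fold change of 0.72 (SE 0.34, limma adjusted p = 0.372). *cdh7* had 7.33, 11.8 and 10.2 CPM in uninjected, 3.30, 7.28 and 9.59 CPM with *bmp* and 18.6, 12.5 and 8.65 CPM with *chordin*. The groups overlapped, and *bmp* against *chordin* gave -0.98 (SE 0.38, limma adjusted p = 0.177). Over the refits *cdh7* ranged from -1.37 to -0.55, the latter without *bmp* replicate 1, and it passed the threshold in 1 of them, without *chordin* replicate 3 (adjusted p from 0.0398 to 0.599).

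Plakophilins are armadillo proteins of the desmosomal plaque, and *pkp3b* (chromosome 7, 32656957 to 32708877) was the member of its family that fell with *bmp*. It measured 27.6, 22.9 and 25.6 CPM in uninjected, 12.996, 10.4 and 11.8 CPM with *bmp* and 19.8, 23.9 and 19.5 CPM with *chordin*. The *bmp* libraries were below all others, while *chordin* and uninjected libraries overlapped. *pkp3b* fell by 1.09 on the log2 scale with *bmp* (SE 0.25, limma adjusted p = 0.00562), a 2.13-fold lower level.

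That call was kept in 10 of 11 refits and was lost without *bmp* replicate 2 (adjusted p = 0.0577, where the refits ranged from 0.00111 to 0.0577). Against *chordin* the log2 fold change of *pkp3b* was -0.81 (SE 0.25, limma adjusted p = 0.0506), just outside the threshold and inside it in 3 of 11 refits. Among the 8 keratins that mark the enveloping layer, *krt5* fell against uninjected, from 1611 ± 331 to 1129 ± 21.7 CPM in *bmp* embryos (SD, n = 3, log2 fold change -0.44, limma adjusted p = 0.0031). The other 7 did not pass the test there, while for *bmp* against *chordin* 3 of 8 were lower (*krt4*, *krt5* and *krt8*). None was at 0 in any library, and their part in the *pkp3b* result was not tested.

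*pkp3a*, the paralog by name, had 93.2, 59.4 and 80.8 CPM in uninjected, 63.5, 65.6 and 78.9 CPM with *bmp* and 86.9, 84.4 and 72.3 CPM with *chordin*, with overlap throughout. The ratio of *pkp3b* to *pkp3a* was 0.297, 0.385 and 0.318 in uninjected, 0.205, 0.159 and 0.150 with *bmp* and 0.228, 0.283 and 0.269 with *chordin*. The ratios of the 3 groups did not overlap, with uninjected highest and *bmp* lowest, and each pair of groups had an exact two-sided permutation p of 0.1, the smallest possible. Between *bmp* and uninjected the mean log2 ratio differed by -0.97.

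The other desmosome genes gave no call. *dspa*, which codes for desmoplakin, the link to keratin, had 169, 134 and 196 CPM in uninjected, 153, 184 and 160.1 CPM with *bmp* and 149, 176 and 155 CPM with *chordin*. *pkp4*, a catenin relative found at adherens junctions, had group means of 96.5 ± 12.2, 96.9 ± 5.50 and 94.4 ± 5.63 CPM (SD, n = 3). Neither gene separated the groups. *dsc2l*, the desmosomal cadherin among the members, was 24.2, 23.2 and 23.5 CPM in uninjected, 21.5, 18.0 and 23.8 CPM with *bmp* and 13.7, 22.5 and 22.4 CPM with *chordin*, uncalled in each comparison.

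The other plakophilins had fewer reads. *pkp1b* had a mean of 12.8 ± 4.88 CPM in uninjected, 8.82 ± 2.25 with *bmp* and 10.97 ± 0.787 CPM with *chordin*, and *pkp1* varied from 1.69 to 9.51 CPM among the *bmp* libraries alone. The *pkp2* locus overlaps 18 other genes with counts, and its 1.35 to 4.19 CPM cannot be assigned with certainty, since the libraries do not record strand.

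Claudin and zonula occludens genes gave no call in any comparison. With 20 or 21 claudins and 5 zonula occludens genes tested, this is near the shares of all genes called. Those were 3.15% for *bmp* against uninjected, 0.892% for *chordin* against uninjected and 5.04% for *bmp* against *chordin*. In this order, 2 of 21, 1 of 20 and 4 of 20 claudins had an unadjusted p under 0.05. These are 9.52%, 5% and 20%, against 12.9%, 9.43% and 14.4% of all genes. Of the 5 zonula occludens genes, 1, 2 and 0 had an unadjusted p under 0.05 in the same order (20%, 40% and 0%). *cldne* (chromosome 15, 2675311 to 2677249), a claudin of the enveloping layer, had 725, 522 and 599 CPM in uninjected, 707, 726 and 673 CPM with *bmp* and 683, 723 and 689 CPM with *chordin*. Its log2 fold changes were 0.23 (SE 0.09, limma adjusted p = 0.195) and 0.21 (SE 0.09, adjusted p = 0.424).

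The uninjected libraries of *cldne* overlapped both injected groups because of replicate 1, the highest of the 3. Without uninjected replicate 1 both comparisons passed the threshold, with log2 fold changes of 0.35 and 0.33 (limma adjusted p = 0.000375 and 0.00317, the lowest of ranges that reach 0.761 and 0.874). Without uninjected replicate 2 the log2 fold changes were 0.085 and 0.070. Its neighbours on chromosome 15 were *cldnf* (2686675 to 2689010) at 31.3, 13.3 and 24.3 CPM in uninjected, 17.5, 20.1 and 13.7 CPM with *bmp* and 25.2, 20.9 and 25.0 CPM with *chordin*, and *cldna* (2692085 to 2693936) at 2.71 ± 0.522, 2.98 ± 1.74 and 2.51 ± 0.674 CPM (SD, n = 3). *cldnj* (2666744 to 2669319), on the other side, had 29 counts in all 9 libraries. For *cldnf*, *bmp* against *chordin* gave -0.49 (SE 0.22, limma adjusted p = 0.298), with no overlap between these groups.

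A further cluster lies on chromosome 21, with *cldnh* (25702690 to 25704648), *cldnc* (25717670 to 25719514), *cldnb* (25729106 to 25730235) and *cldnd* (25740838 to 25741593). *cldnb* had 97.0, 76.6 and 91.7 CPM in uninjected, 96.5, 138 and 115 CPM with *bmp* and 109, 93.8 and 87.9 CPM with *chordin*, a log2 fold change of 0.42 for *bmp* against uninjected (SE 0.14, limma adjusted p = 0.0944), past the threshold in 3 of 11 refits. Next to it, *cldnd* had group means of 70.3 ± 6.80 CPM in uninjected, 75.2 ± 18.9 with *bmp* and 82.1 ± 6.40 CPM with *chordin*. *cldnc* was at 6.37 ± 2.32, 5.54 ± 0.547 and 8.14 ± 2.101 CPM, and *cldnh* had 48 counts in all. The groups overlapped for *cldnb* and *cldnd*, and no member of either cluster was called.

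*cldn7b*, whose partner by name *cldn7a* had under 15 counts, was measured at 279, 210.04 and 206 CPM in uninjected, 263, 253 and 248 CPM with *bmp* and 223, 231 and 239 CPM with *chordin*. The *bmp* libraries were above the *chordin* libraries and within the uninjected range. The row that joins *cldn17* with zgc:110333 had 79.3 ± 12.0, 82.8 ± 9.85 and 71.2 ± 6.596 CPM, and *cldn12* had 26.4 ± 1.05, 30.4 ± 5.18 and 22.8 ± 5.40 CPM (SD, n = 3). For *cldn12*, *bmp* against *chordin* gave 0.50 (SE 0.21, limma adjusted p = 0.25), with overlapping libraries.

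Zonula occludens genes code for the scaffolds that tie claudins to actin. *tjp2a* had 63.9, 66.6 and 64.1 CPM in uninjected, 49.9, 52.6 and 44.6 CPM with *bmp* and 49.2, 54.5 and 49.5 CPM with *chordin*. Both injected groups were below the uninjected libraries, with log2 fold changes of -0.40 (SE 0.15, limma adjusted p = 0.181) and -0.36 (SE 0.15, adjusted p = 0.387). *tjp1b* was at 46.7, 42.0 and 38.4 CPM in uninjected, 25.9, 33.7 and 40.3 CPM with *bmp* and 30.5, 37.0 and 31.1 CPM with *chordin*, with -0.39 for *chordin* (SE 0.18, limma adjusted p = 0.478). No zonula occludens gene passed the threshold.

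The means of the paralogs by name were closer to the uninjected level. *tjp2b* still had all *chordin* libraries (58.6, 61.3 and 60.5 CPM) below the uninjected ones (72.1, 72.2 and 66.2 CPM). With *chordin*, 3 of the 5 zonula occludens genes were below all uninjected libraries (60% against 7.29% of all genes). With *bmp* it was 1 of 5 (20% against 9.04%). *tjp2b* had means of 70.1 ± 3.45, 66.7 ± 4.42 and 60.1 ± 1.37 CPM in uninjected, *bmp* and *chordin* embryos, and *tjp1a* had 87.0 ± 12.7, 83.7 ± 6.49 and 88.7 ± 3.96 CPM (SD, n = 3). *tjp3* had 241, 165 and 194 CPM in uninjected, 194, 203 and 186 CPM with *bmp* and 164, 198 and 185 CPM with *chordin*, all overlapping.

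*epcam* (chromosome 13, 8508846 to 8511340) codes for an epithelial adhesion protein needed for epiboly of the enveloping layer in zebrafish. Its levels were 896, 807 and 825 CPM in uninjected, 955, 807 and 843 CPM with *bmp* and 834, 864 and 811 CPM with *chordin*, and the groups overlapped fully. The log2 fold changes were 0.05 with *bmp* and -0.01 with *chordin* (limma adjusted p = 0.817 and 0.983). The group means of 843 ± 47.1, 868 ± 76.8 and 836 ± 27.0 CPM (SD, n = 3) were within 1.04-fold of each other.

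The uninjected libraries differed from each other in several epithelial genes. The summed level of the 8 enveloping layer keratins was 10817, 7294 and 9147 CPM in uninjected replicates 1, 2 and 3, wider than the 7627 to 8230 CPM with *bmp* and the 8655 to 9740 CPM with *chordin*. Of the 25 members with at least 20 CPM, 10 had their uninjected libraries in the same order (replicate 1, then 3, then 2), which is 40% beside 18.5% of the 6034 genes of that level. They were *epcam*, *cldne*, *cldnb*, *cldnd*, *cldnf*, *tjp3*, *pkp3a*, *pkp3b*, *dsc2l* and *cdh1*. Whether the share of enveloping layer RNA in a library has a part in these levels was not tested.

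**Figure D4:**
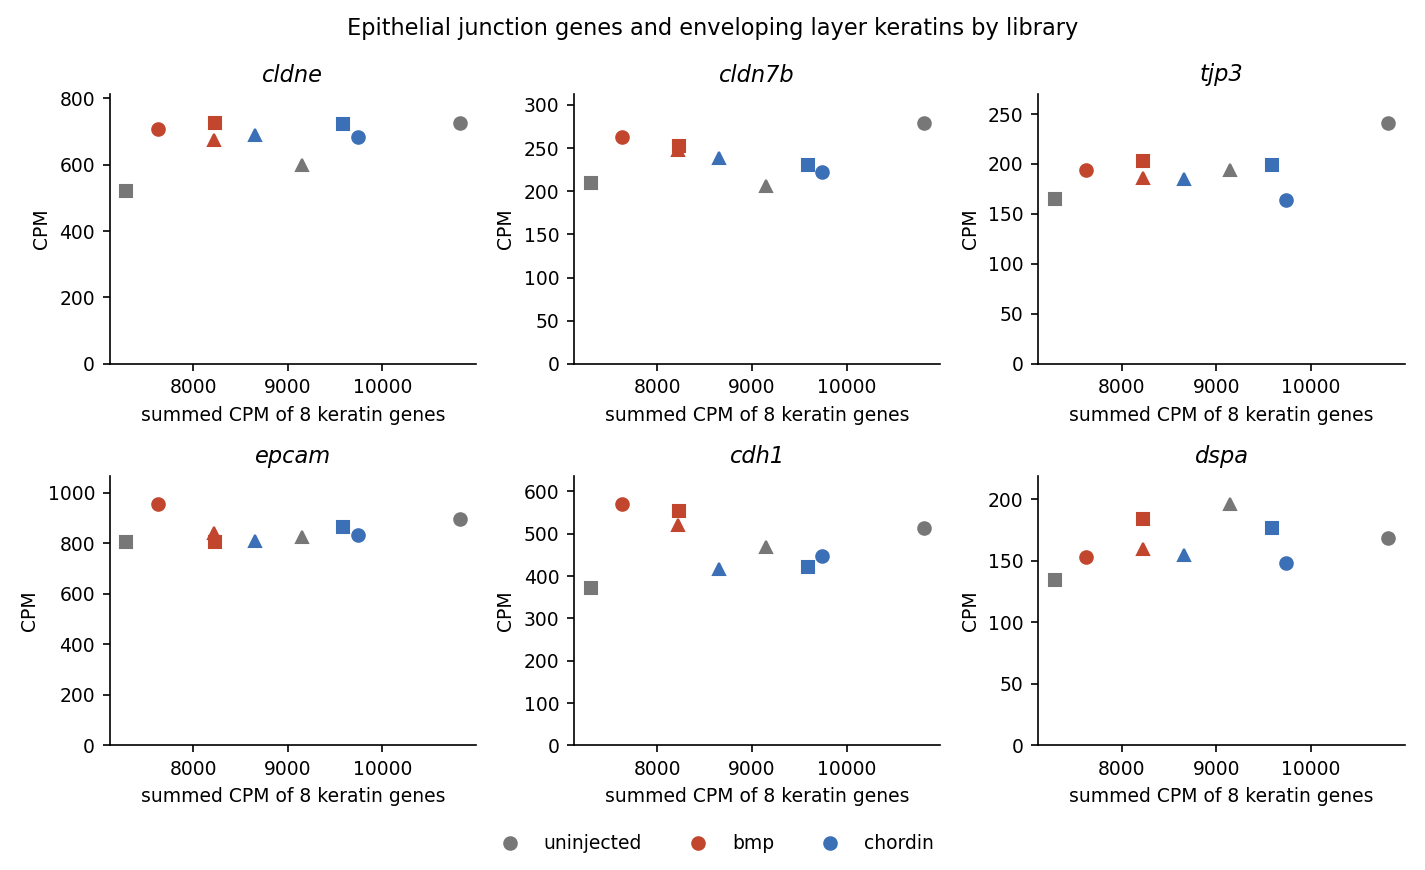
Levels in CPM (y axis, from 0) of *cldne*, *cldn7b*, *tjp3*, *epcam*, *cdh1* and *dspa* against the summed CPM of 8 keratin genes of the enveloping layer (x axis), 1 point per library. Circles, squares and triangles are replicates 1, 2 and 3. The uninjected libraries (gray) span 7294 to 10817 on the x axis, and the *bmp* libraries (red) lie above all others in the *cdh1* panel.

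Other genes of cell junctions were examined through a list of 86 names, of which 72 rows had counts. The names were chosen with earlier results of these data known, so the shares below are not given as support. For *bmp* against uninjected 2 of 66 tested were higher and 5 lower, which is 10.6% against the 3.15% of all genes. *chordin* gave no call among 67 tested, and 9 of them had an unadjusted p under 0.05 (13.4% against 9.43% of all genes). For *bmp* against *chordin* 4 of 66 were higher and 3 lower, which is 10.6% against 5.04% of all genes, or 2.19% higher and 2.85% lower. The median log2 fold change over the list was -0.06 with *bmp* and -0.05 with *chordin*, beside 0.01 and 0.0038 for all genes.

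Repressors of cadherin genes held 3 of the 5 lower calls with *bmp*, out of 7 of their kind tested, which is 42.9% beside 1.43% lower over all genes. As they belong to the same chosen list, this share is not given as support either. Markers of other tissues fell in the same comparison, with 3 of 5 tested for axial mesendoderm and 3 of 5 for neural ectoderm, and their part in the repressor levels was not tested. *snai2*, a zinc finger repressor active in neural crest and mesenchyme, had 94.5, 82.0 and 64.4 CPM in uninjected, 26.7, 18.5 and 33.8 CPM with *bmp* and 94.7, 67.4 and 98.1 CPM with *chordin*. It fell by 1.66 on the log2 scale with *bmp* (SE 0.20, limma adjusted p = 4.35e-07). *zeb1a* had 39.9, 48.0 and 49.6 CPM in uninjected, 20.3, 22.3 and 23.7 CPM with *bmp* and 55.3, 48.3 and 66.6 CPM with *chordin*, and fell by 1.05 (SE 0.19, limma adjusted p = 0.000428).

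For both, the *bmp* libraries were below all others while uninjected and *chordin* libraries overlapped. *snai1b*, at 7.27, 9.56 and 9.03 CPM in uninjected, 3.67, 2.61 and 0.396 CPM with *bmp* and 3.97, 3.85 and 5.48 CPM with *chordin*, fell by 2.33 with *bmp* (SE 0.65, limma adjusted p = 0.0362), a call that 7 of 11 refits kept (log2 fold change from -2.89 to -1.49, adjusted p from 0.00744 to 0.17). It was lost without any 1 of the *bmp* libraries (adjusted p = 0.134, 0.125 and 0.17). *snai1a*, a mesendodermal repressor needed for cell movement in the gastrula, was not called, with means of 374 ± 10.4, 426 ± 28.8 and 436 ± 30.5 CPM (SD, n = 3).

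**Figure D5:**
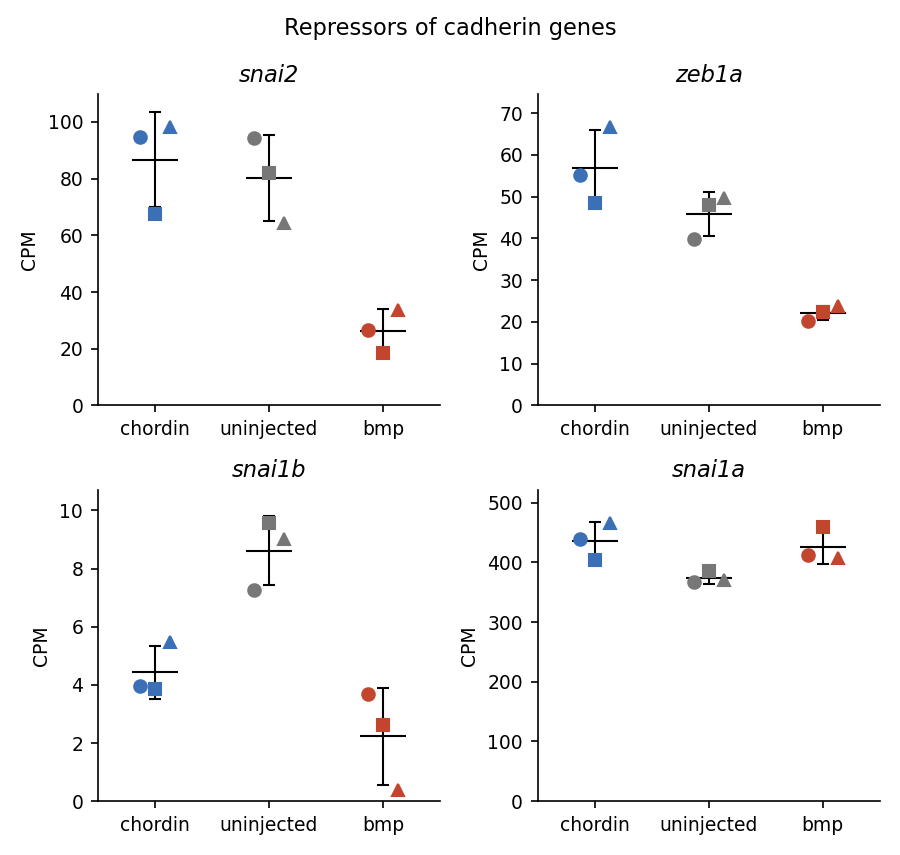
Levels in CPM (y axis, from 0) of *snai2*, *zeb1a*, *snai1b* and *snai1a* in *chordin*-overexpressing, uninjected and *bmp*-overexpressing embryos. Circles, squares and triangles are replicates 1, 2 and 3, with the mean ± SD (n = 3). The *bmp* libraries are the lowest for *snai2*, *zeb1a* and *snai1b*, and the uninjected libraries are the lowest for *snai1a*.

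The other calls with *bmp* against uninjected were 2 catenin genes, *perp* and *amotl2a*. *perp*, a desmosome protein of stratified epithelia in mouse, rose from 172 ± 18.3 to 248 ± 20.1 CPM (log2 fold change 0.54, limma adjusted p = 0.00109). *ctnnd2b*, a delta-catenin gene, rose from 17.1 ± 1.11 to 32.4 ± 5.31 CPM (0.93, adjusted p = 0.00528), a call lost without *bmp* replicate 2 (adjusted p = 0.0687, in a range from 0.000664). *amotl2a*, which codes for an angiomotin-like protein, fell from 57.8 ± 1.97 to 24.4 ± 5.06 CPM (-1.25, limma adjusted p = 1.71e-05, SD, n = 3).

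*ctnna1*, the alpha-catenin that links cadherins to actin, fell with *bmp*, from 251 ± 27.4 to 194 ± 21.4 CPM (SD, n = 3, log2 fold change -0.38, limma adjusted p = 0.0384), a call that 7 of 11 refits kept. With *chordin* it stood at 190.2 ± 22.3 CPM (-0.40, limma adjusted p = 0.089). The *bmp* call was lost without *bmp* replicate 1 or 2 and without uninjected replicate 2 (adjusted p = 0.0835, 0.312 and 0.174), and with limma-trend (adjusted p = 0.0648), in a range from 0.000723 to 0.312. Between *bmp* and *chordin*, the protease gene *st14a* (0.32, limma adjusted p = 0.0156) and the polarity gene *llgl2* (0.39, adjusted p = 0.0331) were higher with *bmp*. These calls held in 7 and 5 of 11 refits, each call being lost in 4 of the refits without 1 library. The *llgl2* libraries overlapped, at 158, 198 and 183 CPM with *bmp* and 133, 160 and 128 CPM with *chordin*, while those of *st14a* did not.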

How the data were processed

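Poly(A) RNA of 9 zebrafish embryo pools was sequenced without strand information. Per the labels and the study's methods, the authors aligned reads to GRCz10 with STAR 2.4.1b and deposited, for each pair of groups, a table of read counts per gene (whole numbers, not normalized, other than plain digits in that commas separate them). Their processing notes also name HTSeq. The deposited fold changes, p-values and calls of edgeR, DESeq and Cuffdiff were not used. Separators were removed, and the 9 columns shared between tables held identical counts.

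limma 3.58.1 in R 4.3.3 with data.table (version 1.17.8) was applied through voom to each pair of groups, with TMM factors written for this work (trims of 30% and 5%), over genes with 15 counts or more whose CPM, in 3 libraries or more, reached the equivalent of 10 counts in a library of median size. Calls needed a Benjamini-Hochberg adjusted p under 0.05 over all genes tested. CPM used TMM factors over all 9 libraries, and the detection limit of a library was set to 3 counts. Ratios were compared by exact permutation. The fits were tested on simulated data. Figures used Python 3.11.15, pandas 2.3.3 and matplotlib 3.10.9. Transcript lengths and sequences were not used here. The CPM bands, the choice of the most abundant members and the ratios of 2 genes therefore take no account of length. Ratios were compared only across libraries.

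The members and lists were chosen with earlier results of these data known. Named members are those called, the structural junction genes, the 6 most abundant of each family, the 3 uncalled with the smallest p per comparison, those with ordered groups, and their a or b partners. Alternatives were no filter, median-of-ratios factors, 3 groups in 1 fit, a replicate block, limma-trend, plain totals, and leaving out each library. The 1.2-fold and 1.5-fold limits for group means, the ratios, the count of intervals within 2-fold, the comparison with the keratin order and the refits of the junction list were added after seeing the data.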

Additional observations from a re-analysis of the deposited data

How the results depend on the processing

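For *bmp* against uninjected, the 1 member higher became 2 without the low-count filter (*cdh19* added), 0 with median-of-ratios factors (*cdh1* lost), 2 with the replicate block (*cldnb* added) and 2 with limma-trend (*cdh11* and *cdh19* in place of *cdh1*), and refits that each lacked 1 library gave 0 to 3, with *cdh1* lost in 4 of 6 cases. The 2 lower became 1 to 2, *pkp3b* being lost without *bmp* replicate 2. For *chordin* against uninjected the 1 higher ranged from 1 to 2 (*cldne* added without uninjected replicate 1). For *bmp* against *chordin* the 1 higher became 2 without the filter and 2 with limma-trend (*cdh19* added in both), and leaving out a library gave 1 to 1. As *cdh19* passed the main filter through its *bmp* libraries, its added calls here and for *bmp* against uninjected are not given as support.

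Leaving out libraries turned the sign of values near 0. *epcam* ranged from -0.020 to 0.11 on the log2 scale for *bmp* against uninjected, from -0.053 to 0.031 for *chordin* against uninjected and from -0.0081 to 0.12 for *bmp* against *chordin*, and *cdh1* ranged from -0.20 to 0.064 for *chordin* against uninjected.

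The replicate numbers of the labels share only a number. The study calls injected and uninjected embryos siblings, without saying that libraries of equal number share a clutch. Same-numbered libraries correlated at 0.0153 to 0.027 for *bmp* against uninjected, where every library correlated best with its own number. This did not hold in the other comparisons. For *chordin* against uninjected, *chordin* replicate 3 and uninjected replicate 2 correlated at 0.106. Values this near 0 do not decide whether libraries of equal number are paired. With the replicate block all genes called went from 288 higher and 240 lower to 389 and 332 for *bmp*, and from 98 and 50 to 198 and 109 for *chordin*. Among members the block added *cldnb* with *bmp* and *pkp3b* for *bmp* against *chordin* (3 lower in place of 2), and among junction partners it lost *snai1b* with *bmp* (adjusted p = 0.0593). Depth limits the members with few reads, since the median member held only 28 to 60 counts in a library.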
